A study of Rattus norvegicus with 4 samples.

Results

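Notch signalling was examined through 10 genes of the pathway in the RNA-Seq data of rat S16 cells: the receptors Notch1, Notch2 and Notch3, the ligands Jag1 and Dll1, the DNA-binding factor Rbpj and the target genes Hes1, Hes5, Hey1 and Hey2. The genes were taken by symbol, and all 10 were found among the 30708 symbols listed. S16 cells are Schwann cells of the rat that grow as a permanent line. The data came from unmodified cells at passage 9, the parental line of the study's enhancer mutants, and from an older culture at passage 39. No gene was altered and no agent was given in either culture. Each passage was 1 population and was sequenced as 2 poly(A) libraries labelled technical replicates, so that no comparison below has a replicate of a condition. The libraries are called first and second numbered after the last digit of their titles. In bulk RNA, fewer cells of a kind and less RNA per cell cannot be told apart.

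Notch receptors are membrane proteins that are cut when a ligand on a neighbouring cell pulls on them. The freed intracellular domain enters the nucleus, joins Rbpj and a Mastermind coactivator, and turns on genes such as those of the Hes and Hey families, which encode basic helix-loop-helix repressors. In the Schwann cell lineage, Notch is known to promote the step from the precursor to the immature Schwann cell and proliferation, and to oppose myelination.

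Expression is given in RPKM, a read count scaled by the length of the gene and by the read total of the library, which allows genes of different length to be compared. Whole reads, gene lengths and library totals were recovered from the RPKM values. The totals were between 34246093 and 41382234 reads. The intervals below are exact 95% intervals computed from the reads of 1 library or of a pair, and cover counting error only. PCR copies of a molecule could not be told from other molecules, so the intervals may be too narrow even for that. The libraries did not group as labelled. Over the 11025 genes whose mean reached 1 RPKM, the SD of the difference in log2(RPKM + 1) was 0.339 and 0.334 between the technical replicates of passage 9 and passage 39, but 0.0796 and 0.0823 between the first and between the second numbered libraries of both passages. Every result is therefore given by passage and by library number, and a library batch cannot be told apart from exchanged labels. The labels call the cells myelinating. Of 9 Schwann cell markers, 8 had a mean of at least 1 RPKM, with Pmp22, which encodes a membrane protein of peripheral myelin, at 1255 RPKM and the lineage factor Sox10 at 176 RPKM. The exception was Pou3f1, a factor of the promyelinating stage, at 0.148 RPKM.

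Of the 10 genes, 7 had a mean of at least 1 RPKM, and they covered each step from ligand to target. Jag1 was the highest, at 42.2 ± 0.379 RPKM (SD, n = 2 populations), above 84.8% of the 11025 genes. Notch1 followed at 27.8 ± 0.174 RPKM, Hes1 at 26.6 ± 0.239 RPKM and Notch2 at 15.4 ± 0.0598 RPKM (SD, n = 2 each). These SDs are over the passage means, which each average a first and a second numbered library, and so depend on the labels: by number, Notch1 averaged 32.3 and 23.2 RPKM. Rbpj, Hey2 and Hey1 were lower, at 5.41 ± 0.174, 3.31 ± 0.202 and 3.06 ± 0.185 RPKM. Notch3, Dll1 and Hes5 were under 1 RPKM. Neighbours in this order were not always apart. Notch1 lay above Hes1 in both first numbered libraries and below it in both second numbered libraries. The order of Hey1 and Hey2 changed in the second numbered library of passage 9, and that of Notch3 and Dll1 differed between libraries of the same passage.

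**Figure D1:**
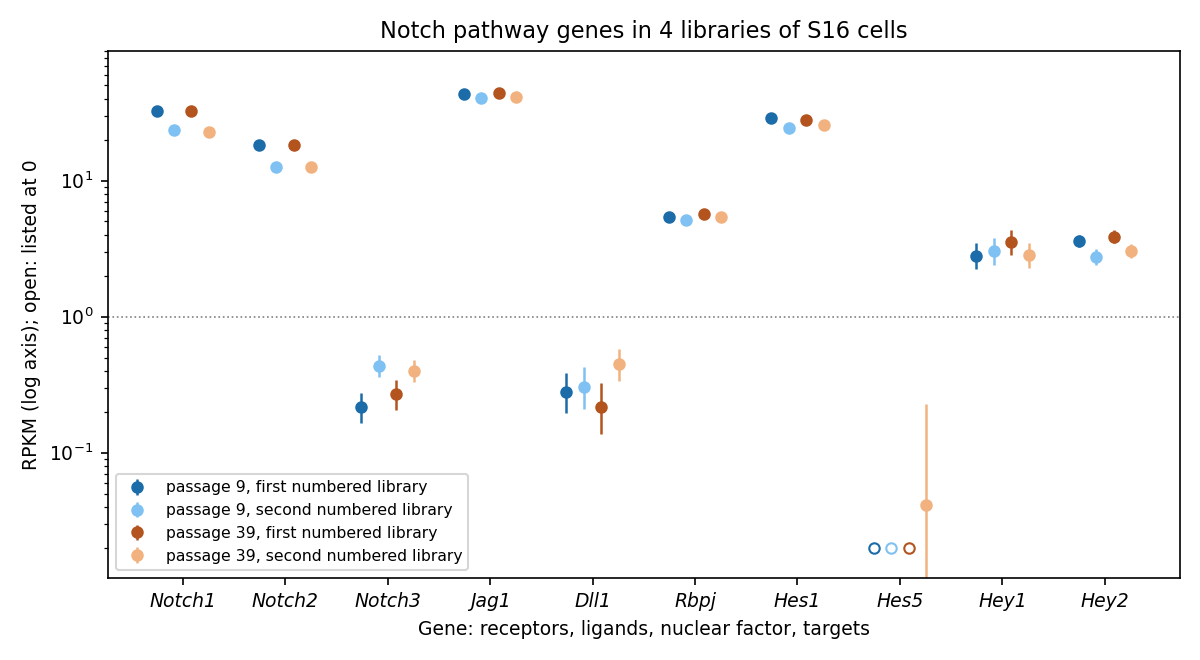
RPKM (log axis) of the 10 Notch genes in the 4 libraries, with exact 95% counting intervals as bars; the dotted line marks 1 RPKM and open points stand for a gene listed at 0, drawn at the foot of the axis. Jag1, Notch1, Hes1 and Notch2 lie above 12 RPKM in every library, Notch3 and Dll1 between 0.2 and 0.5 RPKM, and Hes5 is above 0 in 1 library.

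Among the receptors, Notch1 was listed at 32.2 and 23.5 RPKM in the first and second numbered libraries of passage 9 and at 32.3 and 22.9 RPKM in those of passage 39, on 12551, 7769, 10421 and 8864 reads. The values fell into a high pair and a low pair by library number, while the passages overlapped. Notch2 was at 18.2 and 12.5 RPKM in the passage 9 libraries and at 18.4 and 12.6 RPKM in the passage 39 libraries, and split in the same way. Notch1 was 1.77, 1.88, 1.76 and 1.82 times Notch2 in the 4 libraries in that order, so that this ratio moved far less than the level of either gene. Notch3, which is best known from vascular mural cells, was at 0.215 and 0.436 RPKM in the passage 9 libraries and at 0.267 and 0.399 RPKM in the passage 39 libraries, on 65, 112, 67 and 120 reads. Its order was the opposite of that of Notch1 and Notch2, with both second numbered libraries above both first numbered ones. Notch4, the remaining receptor of the family, had a mean of 0.278 RPKM. Notch1 and Notch2 together made up between 97.9% and 99.1% of the summed RPKM of the 4 receptors.

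Among the ligands, Jag1 was at 43.5 and 40.4 RPKM in the passage 9 libraries and at 43.7 and 41.3 RPKM in the passage 39 libraries, on between 7924 and 10065 reads. The second numbered libraries were slightly below the first in both passages. Because Notch1 differed more, Jag1 was 1.35 times Notch1 in each first numbered library and 1.72 and 1.80 times Notch1 in the second numbered libraries of passage 9 and passage 39. Dll1, the prototype of the Delta ligands, was at 0.279 and 0.302 RPKM in the passage 9 libraries and at 0.215 and 0.445 RPKM in the passage 39 libraries. These values rest on 36, 33, 23 and 57 reads, and the intervals overlapped except between both passage 39 libraries. The other ligands of the canonical pathway were lower still, with means of 0.0576 RPKM for Dll3, 0.0348 RPKM for Jag2 and 0.0119 RPKM for Dll4.

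Rbpj, the factor through which the cleaved receptors act on DNA, was at 5.40 and 5.17 RPKM in the passage 9 libraries and at 5.65 and 5.41 RPKM in the passage 39 libraries, on between 776 and 956 reads. Its intervals overlapped between all libraries, and its lowest passage 39 value lay just above the highest passage 9 value.

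Hes1 was the leading target gene, at 28.7 and 24.2 RPKM in the passage 9 libraries and at 27.9 and 25.7 RPKM in the passage 39 libraries, on 1677, 1203, 1350 and 1493 reads. It made up between 49.8% and 54.2% of the summed RPKM of 9 Hes and Hey genes, and together with Hes6, named after its value was seen, which encodes a relative known to antagonize Hes1, between 85.8% and 87.9%. Hey2 was at 3.58 and 2.75 RPKM in the passage 9 libraries and at 3.87 and 3.04 RPKM in the passage 39 libraries, with both first numbered libraries above both second numbered ones. Hey1 was at 2.81 and 3.04 RPKM in the passage 9 libraries and at 3.55 and 2.83 RPKM in the passage 39 libraries, on 80 to 91 reads, and its intervals all overlapped. Hes5 was listed at 0 in 3 libraries and at 0.0411 RPKM in the second numbered library of passage 39, where the smallest whole number of reads is 1. With the length of 592 bases that this single value gives, which could be a multiple of that, 3 reads would be between 0.122 and 0.148 RPKM in the other libraries. Hes3, the lowest of the family, was listed at 0 in all libraries. Heyl, the third Hey gene, had a mean of 0.0173 RPKM, and Nrarp, a target that feeds back on the receptor complex, one of 2.93 RPKM.

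The start regions of the target genes are shown because the same letters stand before genes of very different level. They were searched for GTGGGAA, the core of the sequence that Rbpj is known to bind, and for its shorter form TGGGAA, which it contains, on both strands. The promoter table of RefSeq (build GRCr8, not the build of the reads) held a window of 300 bases for 9 of the 10 genes, all but Hey1. GTGGGAA or its reverse complement was present for Hes1, Hes5, Hey2 and Dll1, and in 6.29% of all 33469 windows. Hes5 held it at 2 positions, as did 0.236% of all windows. TGGGAA was present for 6 of the 9 genes and in 25.7% of all windows. The bases before the gene start are given below for those 4 genes, 5′ to 3′ on the strand of the gene, with every TGGGAA or GTGGGAA of either strand in capitals. Hes1 is from chr11:84213046-84213295 (minus strand), Hes5 from chr5:170804327-170804510 (plus strand, shortened to the bases before the first annotated start), Hey2 from chr1:28640850-28641099 (plus strand) and Dll1 from chr1:64993275-64993524 (minus strand).
Hes1: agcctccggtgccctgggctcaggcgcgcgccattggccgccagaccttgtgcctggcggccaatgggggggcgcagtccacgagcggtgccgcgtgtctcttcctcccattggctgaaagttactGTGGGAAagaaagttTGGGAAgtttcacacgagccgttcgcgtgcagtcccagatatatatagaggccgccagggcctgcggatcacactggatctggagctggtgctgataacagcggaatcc
Hes5: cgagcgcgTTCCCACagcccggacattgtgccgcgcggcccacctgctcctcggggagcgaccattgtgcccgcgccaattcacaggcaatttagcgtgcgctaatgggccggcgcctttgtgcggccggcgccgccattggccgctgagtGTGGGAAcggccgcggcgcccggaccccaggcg
Hey2: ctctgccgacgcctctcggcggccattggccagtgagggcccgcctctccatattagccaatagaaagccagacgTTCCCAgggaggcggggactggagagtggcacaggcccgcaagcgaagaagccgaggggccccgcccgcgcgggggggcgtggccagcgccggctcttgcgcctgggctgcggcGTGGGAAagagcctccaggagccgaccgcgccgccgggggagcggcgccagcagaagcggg
Dll1: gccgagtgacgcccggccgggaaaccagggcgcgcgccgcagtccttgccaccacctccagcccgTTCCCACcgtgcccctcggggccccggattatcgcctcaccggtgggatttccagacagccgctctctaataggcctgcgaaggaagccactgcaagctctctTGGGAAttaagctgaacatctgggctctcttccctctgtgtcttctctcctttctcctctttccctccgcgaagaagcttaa
Hes1, with 26.6 RPKM, and Hey2, with 3.31 RPKM, held these letters as did Dll1, with 0.310 RPKM, and Hes5, which was listed at 0 in 3 libraries. In Hes1 the matches start at bases 127 and 142 of the printed stretch, both on the strand of the gene. A match is a run of letters and no evidence of binding.

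The passages were compared to ask whether the older culture differed from the parental one. None of the 7 genes that reached 1 RPKM differed 2-fold between passage 39 and passage 9, where 0.00907% of all 11025 genes did. Their differences in log2(mean RPKM + 1) lay between -0.01 for Notch1 and 0.10 for Hey2, with a median of 0.018 against -0.0021 for all genes. Hey2 averaged 3.17 RPKM in the younger and 3.45 RPKM in the older cells, and Hey1 2.93 and 3.19 RPKM. Of the 7, only Rbpj had libraries that did not overlap between the passages; both passage 39 values were higher, as for 3.1% of all genes. Compared within a library number, the ratio of a gene's share of the reads left out 1 for none of the 9 genes with at least 20 reads, neither for the first numbered libraries, where it did so for 5.89% of all genes, nor for the second, where it did for 7.97%. The ratio of passage 39 over passage 9 was 1.00 (0.977 to 1.03) and 0.975 (0.945 to 1.00) for Notch1 and 1.00 (0.974 to 1.03) and 1.02 (0.993 to 1.05) for Jag1, in the first and second numbered libraries. For Hes1 it was 0.973 (0.905 to 1.05) and 1.06 (0.982 to 1.14). The few reads of Dll1 allowed ratios from 0.437 to 1.34 and from 0.945 to 2.34. Each ratio compares a pair of libraries and not the passages as conditions.

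**Figure D2:**
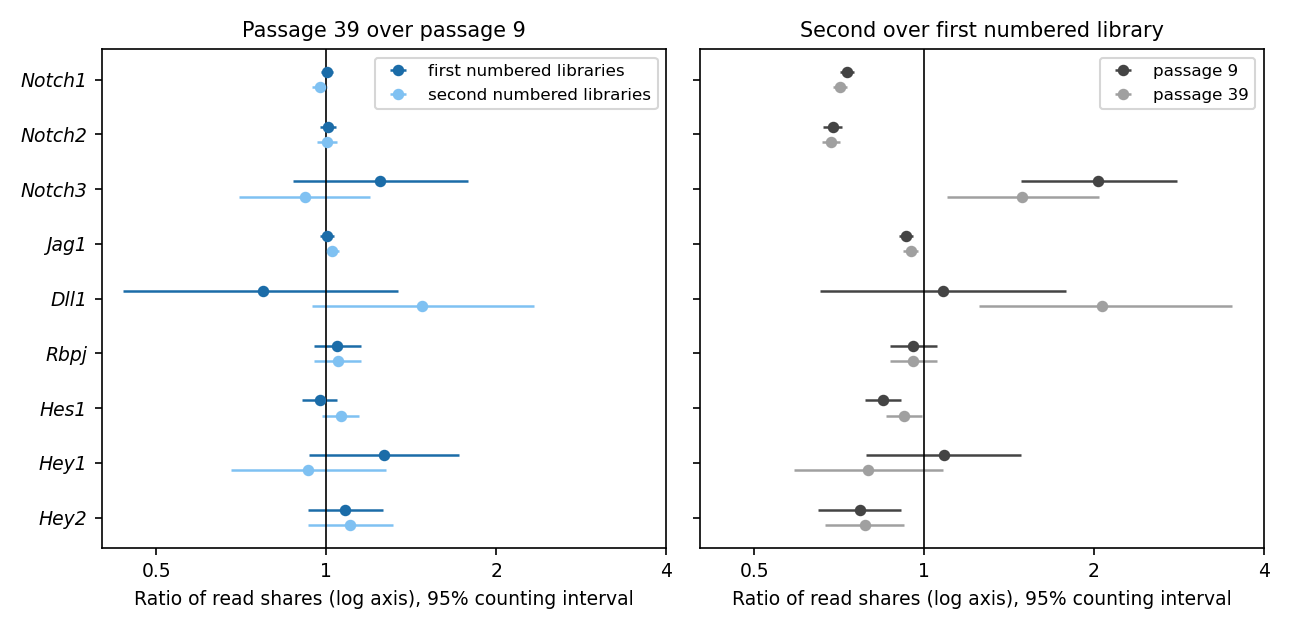
Ratio of each gene's share of the library's reads (log axis) with its exact 95% counting interval, for passage 39 over passage 9 (left) and for the second over the first numbered library (right); Hes5 had too few reads. All intervals on the left include 1, while those of Notch1, Notch2, Jag1, Hes1 and Hey2 on the right lie below 1 in both passages and those of Notch3 above 1.

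By library number, the genes of the set differed in direction. Notch1 and Notch2 were lower in the second numbered libraries, at 0.719 and 0.687 times their means in the first. Hey2 was at 0.777 times, Hes1 at 0.883 times and Jag1 at 0.938 times. For these 5 of the 7 genes of at least 1 RPKM, both second numbered libraries lay below both first numbered ones, as for 30.5% of all genes. None of the 7 had both above, as 57.2% of all genes did; below 1 RPKM, Notch3 and Dll1 had. The median difference in log2(mean RPKM + 1) was -0.17 for the 7 genes and 0.10 for all genes. None of the 7 differed 2-fold, as 1.09% of all genes did. These shares describe 7 genes in 4 libraries and were not tested.

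The reads gave the same picture within each passage. At passage 9, the ratio of the second over the first numbered library was 0.730 (0.709 to 0.751) for Notch1, 0.688 (0.663 to 0.714) for Notch2, 0.928 (0.901 to 0.956) for Jag1, 0.846 (0.785 to 0.911) for Hes1 and 0.769 (0.649 to 0.909) for Hey2. At passage 39 it was 0.709, 0.685, 0.947, 0.922 and 0.784 for the same genes, and again no interval reached 1. At passage 9, 5 of the 9 genes with enough reads were thus lower and 1 higher, against 23.8% and 40.9% of all genes, and at passage 39, 5 were lower and 2 higher, against 23.3% and 40.2%. The interval of Hes1 came closest, at 0.856 to 0.993. Notch3 had ratios of 2.03 (1.48 to 2.80) at passage 9 and 1.49 (1.10 to 2.04) at passage 39. Dll1 was above 1 at passage 39 only, with 2.07 (1.25 to 3.51) against 1.08 (0.653 to 1.78), and these intervals overlap. Rbpj had a ratio of 0.957 in both passages, with intervals from 0.870 to 1.05. Hey1 had intervals that included 1 in both. In all, 5 genes were lower in both passages, where 20.3% of all genes were, and Notch3 was higher in both, where 35.7% were.

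The ratios were also scaled in other ways, chosen after seeing the data. With the sum of RPKM made equal in all libraries, the ratio of Notch3 at passage 39 was 1.35 (0.996 to 1.85) and no longer left out 1, and Rbpj was lower in both passages, at 0.861 (0.782 to 0.948) and 0.868 (0.790 to 0.954). Hey1 was then lower at passage 39, at 0.723 (0.532 to 0.980). With median-ratio scaling only the call of Rbpj changed, which was lower in both passages, at 0.898 and 0.901. With equal sums of RPKM, Jag1 was higher at passage 39 than at passage 9 in the second numbered libraries. Its ratio was 1.03, with an interval that began just above 1. At passage 9 equal sums turned the split of all genes to 35.9% lower and 24.1% higher. Notch1, Notch2, Jag1, Hes1 and Hey2 stayed lower and Notch3 higher. The median difference of all genes moved from 0.10 to -0.026 with equal sums. Relative to that median, Notch1 was at -0.56 as deposited and -0.59 with equal sums, and Notch2 at -0.61 and -0.65.

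Gene length moved with the library number. Across 11023 genes, which are not independent replicates, the difference between second and first numbered libraries had a Spearman rho of -0.415 with the recovered length. Notch1 and Notch2 are long, with recovered lengths of 9407 and 9941 bases, longer than 97.4% and 97.8% of the 11025 genes. The genes nearest in length had median log2 differences of -0.21 and -0.22, and relative to these Notch1 was at -0.25 and Notch2 at -0.29, against -0.46 and -0.51 before. Notch3, with 7315 bases and a median of -0.13 among genes of its length, was at 0.32 relative to it. The genes behind these medians all reached 1 RPKM. Notch3 did not, and the added 1 RPKM damps its difference more than theirs. Genes of the length of Hes1, 1414 bases, were higher in the second numbered libraries by a median of 0.21, those of the length of Hey2 by 0.14 and those of the length of Hey1 by 0.27. Each relative to the genes of its own length, Hes1 was at -0.39, Hey2 at -0.42 and Hey1 at -0.36. The part of length in these differences was not tested further.

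**Figure D3:**
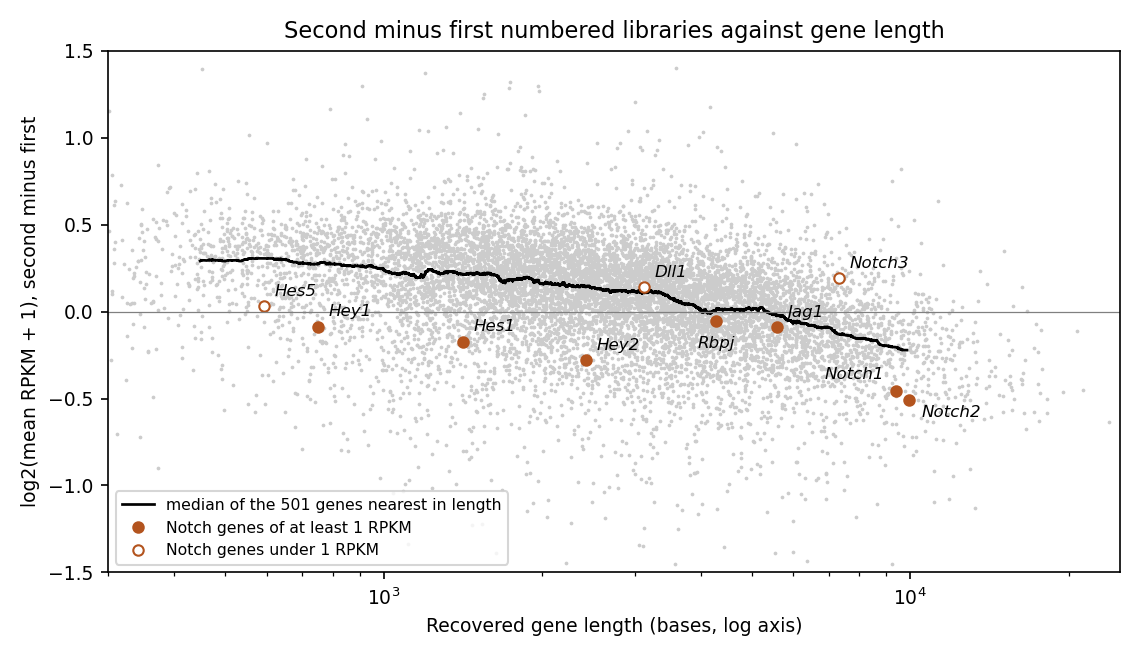
Difference in log2(mean RPKM + 1) between second and first numbered libraries against recovered gene length (log axis) for genes whose mean reached 1 RPKM (grey), with the running median of genes nearest in length (line) and the Notch genes (orange, open under 1 RPKM); 156 genes lie outside the axes. Hes1, Hey1, Hey2, Notch1 and Notch2 lie below the line, Notch3 above it, and Jag1 and Rbpj close to it.

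Markers of other cells were set beside these differences. The summed RPKM of the 9 Schwann cell markers was 1984 and 1920.0 in the first and second numbered libraries of passage 9 and 1971 and 1899 in those of passage 39, slightly lower where Notch1, Notch2, Hes1 and Hey2 were lower. Of the 9, 5 had both second numbered libraries below both first numbered ones, among them S100b at 85.7 and 31.8 RPKM in the younger cells, and 4 had both above, among them Sox10 and Pmp22. Of 8 mural cell markers, 3 had a mean of at least 1 RPKM, and their sum was 1000.4 and 1773 RPKM in the passage 9 libraries and 1013 and 1757 RPKM in those of passage 39, higher where Notch3 was higher. Both second numbered libraries were below both first numbered ones for 2 of the 8 and above them for 3. Pdgfrb, the third marker past 1 RPKM, was among the lower, at 23.9 and 21.5 RPKM in the younger cells. The sum was carried by the contractile genes Acta2, at 444 and 986 RPKM in the younger cells, and Tagln, at 532 and 764 RPKM, which fibroblasts and other cells share. The mural markers Rgs5, Des, Kcnj8 and Cspg4 were at or near 0, none above 0.0786 RPKM in any library. None of 8 endothelial markers had a mean of 1 RPKM, their sum was between 0.724 and 0.860 RPKM, and Cdh5, Kdr and Cldn5 were listed at 0. Neuron markers summed to between 82.0 and 90.4 RPKM, from Tubb3 and Nefm among 8 genes. Fibroblast markers summed to between 4266 and 4660 RPKM, with 4 of 8 at 1 RPKM or more. That sum was carried by Col1a1, with a mean of 3588 RPKM, and Fn1, with 780 RPKM. The fibroblast markers Col1a2, Lum and Dcn had means of 0.339, 0.0534 and 0.0033 RPKM, and Thy1 was listed at 0. The part of these markers in the differences was not tested.

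The rest of the pathway was described with a list of 60 further genes, of which 58 were used here. A mean of at least 1 RPKM was reached by 44 of them. None differed 2-fold by passage or by number. By number, 15 of the 44 had both second numbered libraries below and 26 both above the first, against 30.5% and 57.2% of all genes, and their median log2 difference was 0.11 against 0.10 for all genes. The median of the 7 genes of the set stood at -0.17, and the difference between these medians was not tested. By passage, the further genes lay between -0.098 and 0.051.

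**Figure D4:**
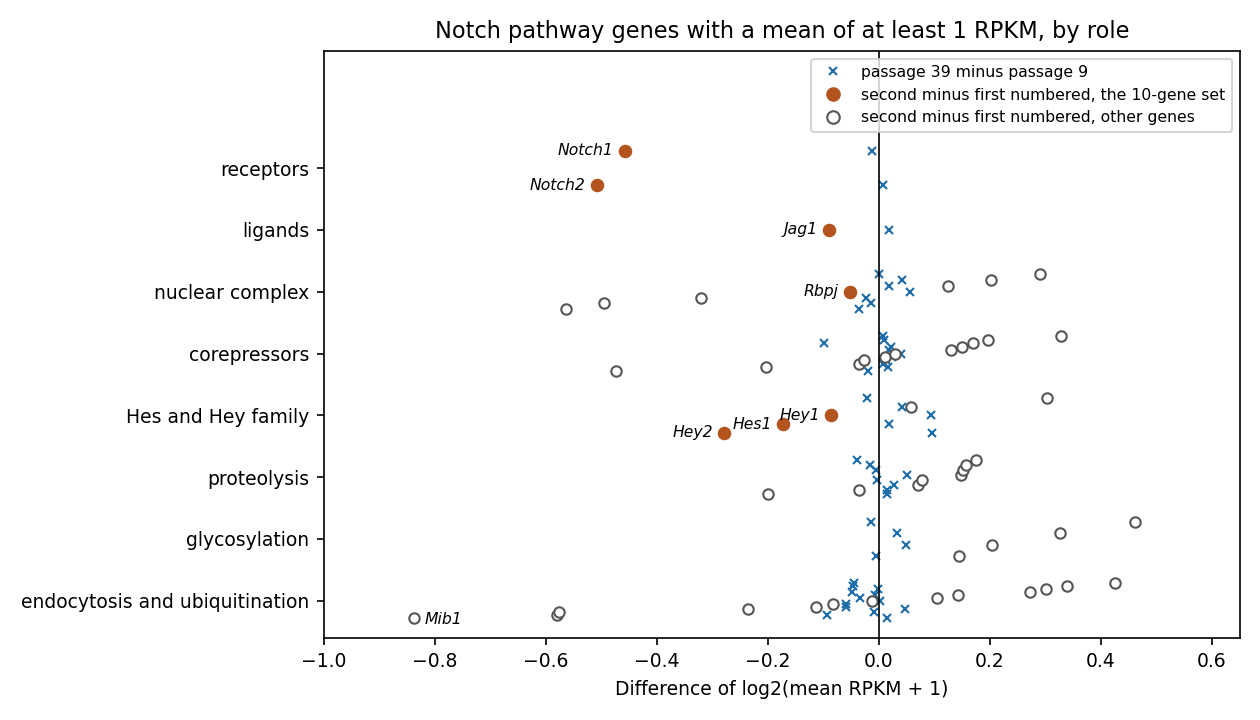
Differences in log2(mean RPKM + 1) for the 51 pathway genes whose mean reached 1 RPKM, arranged by role (points within a role are spread vertically for legibility); crosses give passage 39 minus passage 9, and circles second minus first numbered libraries, filled for the 10-gene set. The crosses lie within 0.10 of 0, while the circles reach from -0.84 for Mib1 to 0.46 for Rfng.

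The 7 genes of the nuclear complex around Rbpj that were used here, all but Kat2b, had means from 4.49 RPKM for the Mastermind gene Maml2 to 29.7 RPKM for the acetyltransferase gene Kat2a. Several genes are named from here on after their values were seen, namely Maml3, Ep300, Tle3, Adam10, Pofut1, Rfng, Mib1 and Neurl1b. Maml2 was at 0.620 (0.575 to 0.667) and 0.616 (0.572 to 0.663) of the first numbered library in passage 9 and passage 39, and Maml3 at 0.649 and 0.678. Ep300, a coactivator gene, was at 0.803 and 0.774, while Kat2a had a log2 difference of 0.29 in the other direction. Among the corepressor genes, means ran from 2.52 RPKM for Tle1 to 86.8 RPKM for Hdac2. Tle3, which encodes a Groucho corepressor that Hes proteins recruit, was at 0.742 and 0.671.

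Genes for receptor processing were well represented. Ncstn, which encodes the substrate-binding subunit of gamma-secretase, had the highest mean of that group at 64.5 RPKM, and Aph1b was listed at 0 in all libraries. Adam10, the protease of the ligand-induced cut, was at 0.869 (0.830 to 0.910) and 0.860 of the first numbered libraries. Of the genes for sugar transfer to Notch, Poglut1 was the highest at 35.5 RPKM and Mfng the lowest at 0.0499 RPKM. The 4 such genes of at least 1 RPKM were all higher in the second numbered libraries of both passages, as were 35.7% of all genes by their intervals. Rfng was at 1.42 and 1.38, Pofut1 at 1.28 and 1.27, and Lfng at 1.14 and 1.08 times the first. The log2 difference of Lfng shrank from 0.14 to 0.0065 with equal sums of RPKM. Relative to the median of all genes, it was 0.040 as deposited and 0.032 with equal sums.

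Among the pathway genes of at least 1 RPKM, a ubiquitin ligase gene had the largest difference in log2(mean RPKM + 1) by number. Mib1, which encodes the ligase that drives ligand endocytosis in the sending cell, was at 13.3 and 6.93 RPKM in the passage 9 libraries and at 13.4 and 7.07 RPKM in the passage 39 libraries. Its ratios were 0.523 (0.483 to 0.565) and 0.529 (0.490 to 0.571), and its log2 difference of -0.84 became -1.04 with equal sums of RPKM. Relative to the median of all genes, the difference was -0.94 as deposited and -1.01 with equal sums. Neurl1b, a ligase gene of the Neuralized family, was at 0.640 and 0.603. Itch, a ligase gene for receptor turnover, had the highest mean of this group at 18.8 RPKM and a log2 difference of -0.012, and Dtx1 the lowest with 0.0016 RPKM.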

How the data were processed

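Poly(A) RNA-Seq of 2 unmodified S16 populations, each with 2 libraries, was used. According to the methods and the labels, single-end reads were aligned to rat Rnor_5.0 with STAR, only unique alignments were kept, and reads were counted per gene with HTSeq without strand. Reads of genes that overlap on opposite strands can therefore not be told apart. The authors deposited RPKM values, 1 per symbol and library. Gene lengths and tool versions are not given in the sources used here. The recovered totals per library lie above the number of reads per cell line that the methods state, and the reason was not tested.

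Whole reads, lengths and totals were recovered from the ratios of the values (smallest whole numbers, tolerance 0.0001), for 18111 of 18114 genes above 0 in at least 2 libraries. A factor common to the libraries can remain hidden. The step was checked on simulated libraries. RPKM values were averaged per group, and differences were taken in log2(mean RPKM + 1), which understates changes of low genes. Differences past 2-fold were counted over genes whose mean reached 1 RPKM. Ratios of read shares have exact conditional (Clopper-Pearson) 95% intervals, for at least 20 reads in a pair. No p-values were computed, since each passage was 1 population.

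1 Schwann cell marker is not reported here and is left out of the marker sums. The 10 genes, the pathway and marker lists and the grouping by number were chosen with earlier results of these data known. Named were all 10 genes, for each role the highest and the lowest gene, genes past 2-fold, and Notch4, Jag2, Dll3, Dll4, Heyl, Nrarp and Lfng. Alternatives were 2 scalings, a pseudocount of 0.1 RPKM, other minimums, each library left out and differences within a number. The correction for length, the scaled read shares and the scaled values of other pathway genes were added after seeing the data. Python 3.11.15, numpy 2.4.6, pandas 2.3.3, scipy 1.17.1 and matplotlib 3.10.9 were used.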

Additional observations from a re-analysis of the deposited data

Results flagged for a closer look

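Hes5 had 1 library apart from the other 3, with a gap of 1 times the range, because it was above 0 in that library only. A gene above 0 in only 1 library always has such a gap.

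Some genes moved in opposite directions in the 2 library numbers or passages, and these differences were not tested. From passage 9 to passage 39, Notch1 changed by 0.107 RPKM in the first and by -0.598 RPKM in the second numbered libraries, Notch3 by 0.0527 and -0.0370 RPKM, Dll1 by -0.0636 and 0.143 RPKM, Hes1 by -0.781 and 1.46 RPKM, and Hey1 by 0.741 and -0.216 RPKM. From the first to the second numbered library, Hey1 changed by 0.237 RPKM at passage 9 and by -0.720 RPKM at passage 39. For each of these genes the counting intervals of both passage ratios included 1.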

How the results depend on the processing

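None of the genes counted in a run passed 2-fold by passage or by number under any alternative. Of the 10 genes, between 5 (minimum of 5 RPKM) and 9 (minimum of 0.1 RPKM) met the minimum, against 7. Without a minimum all 10 were counted. With 1 RPKM added, Notch3, Dll1 and Hes5, at most 0.445 RPKM in a library, could not reach 2-fold whatever their ratios. With nothing added, the ratios of the means were under 2 for Notch3 and Dll1 as well. By number they were 1.73 and 1.51, and by passage 1.02 and 1.14. Hes5 had no such ratio, since its reference mean was 0. Over all genes, 1 differed 2-fold by passage. This was 4 once the RPKM sums were made equal, 0 at the 5 RPKM minimum, and between 9 and 26 with a library left out: 24 without the first and 9 without the second of passage 9, 26 without the first and 13 without the second of passage 39, since the passages then mix library numbers unequally. By number, 120 differed (40 higher, 80 lower), 325 with equal sums, 251 with a pseudocount of 0.1 RPKM and 141 (29 higher, 112 lower) with median-ratio scaling. No paired test was run, since the counts come from no test. With differences taken within each number, as a replicate block would, the passage count was 1. The deviations of libraries with the same number correlated at 0.943, but their labels name no shared batch. By number, Notch1, Notch2, Notch3, Jag1, Dll1, Hes1, Hey2 and Rbpj kept their sign in 8 of 8 alternatives, Hey1 in 7 and Hes5 in 6. Notch1 ranged from -0.61 to -0.25 and Notch2 from -0.67 to -0.29. Depth limits Hes5, Dll1, Notch3 and Hey1, which rest on at most 120 reads in a library.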

Other observations

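Ligand-like genes outside the canonical pathway, not described above, differed by library number on few reads. Dner, which encodes a membrane protein with EGF repeats, rested on 18 and 49 reads at passage 9 and on 11 and 78 reads at passage 39, and its share of reads in the second numbered library was 3.21 (1.84 to 5.86) and 5.91 (3.13 to 12.3) times that in the first. Dlk1, a non-canonical ligand gene, went the other way, with 30 and 5 reads at passage 9 and 21 and 8 reads at passage 39, at ratios of 0.197 (0.0595 to 0.512) and 0.318 (0.122 to 0.746). Both had means under 1 RPKM. Numbl, which encodes a relative of the Notch antagonist Numb, was at 1.39 (1.33 to 1.45) and 1.34 (1.28 to 1.41) times the first numbered libraries, while Numb, at a mean of 13.0 RPKM, had a log2 difference of -0.11. These genes were picked after their values were seen.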
